A study of Mus musculus with 30 samples.

Results

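Expression of genes of the solute carrier and ATP-binding cassette (ABC) transporter families was examined in 15 adult mouse tissues. The genes were all those whose symbol begins with Abc, Slc or Slco in the study's own lists of array probes, and each was represented by the probe that the authors kept in their table of values. This gave 66 genes, 30 of the Abc, 31 of the Slc and 5 of the Slco families, out of 25030 probes in the table, of which 5622 had a symbol in those lists. The lists were at hand only in shortened form, so the 66 genes are an incomplete sample of the families. Chromosome 1 carries 21 of them, including 19 of the 36 Slc and Slco genes.

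The mice were males of the C57BL/6 strain, of 28 weeks per the labels (the study's methods give another age), with no treatment or engineered allele named. The groups were brain_cortex, cerebellum, eyes, lung, liver, heart, kidney, bladder, muscle, skin, small_intestine, stomach, large_intestine, fat and bone, with 2 arrays each and 30 in all. The series text gives different animals for the replicates, with a single replication for bone and fat although 2 arrays of each are labelled, so for those tissues the spread may be technical. On each two-colour Agilent array the tissue RNA carried Cy3 and a common reference, RNA of cultured mouse cell lines mixed with embryonic stem cell RNA, carried Cy5. Values are log2 ratios of tissue over reference after background correction and loess normalisation, so a value of 1 means a level 2 times that of the reference. The zero point differs between probes, so values are compared between tissues for 1 probe and never between genes. Whole organs were sampled, and fewer cells of a type cannot be told apart from less RNA per cell.

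ABC transporters are membrane proteins that use the energy of ATP to move lipids, sterols, bile constituents, drugs, peptides or metabolites, mostly out of the cytoplasm. ABCA and ABCG members are known for lipid and sterol export, ABCB and ABCC members for drug, phospholipid and conjugate export, and ABCD members for transport across the membranes of peroxisomes and lysosomes. ABCE and ABCF proteins share the ATP-binding domains but have no membrane domain and act in translation. Solute carriers move ions, vitamins, metals, nucleotide sugars and organic anions along or against existing gradients. The Slc25 family serves the inner mitochondrial membrane. Epithelia of kidney, gut, stomach and liver are the classic sites of their study.

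Promoters were set beside the expression patterns because both ends of the range of tissue specificity were found among the genes. Tissue specificity was expressed as information, that is, how far the entropy of the shares of 15 tissues in the summed linear ratio falls short of its maximum of 3.91 bits. It is 0 bits for equal levels in all tissues. The RefSeq windows (GRCm38.p6) run from 250 bases before to 50 bases after a gene start and are printed in the direction of the gene. Capitals mark each CG dinucleotide (CpG), the site of DNA methylation, whose density separates CpG-island promoters from others. The first pair belongs to the genes with the highest information, 1.33 bits for Slc26a9 and 1.08 bits for Abca12. They come from chr1:131743772-131744071 on the plus strand and chr1:71414861-71415160 on the minus strand.

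Slc26a9: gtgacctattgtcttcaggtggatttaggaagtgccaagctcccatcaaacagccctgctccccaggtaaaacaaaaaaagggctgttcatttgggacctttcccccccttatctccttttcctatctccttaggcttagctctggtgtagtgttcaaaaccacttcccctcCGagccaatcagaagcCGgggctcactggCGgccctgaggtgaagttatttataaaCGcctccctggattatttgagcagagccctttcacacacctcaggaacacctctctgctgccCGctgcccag
Abca12: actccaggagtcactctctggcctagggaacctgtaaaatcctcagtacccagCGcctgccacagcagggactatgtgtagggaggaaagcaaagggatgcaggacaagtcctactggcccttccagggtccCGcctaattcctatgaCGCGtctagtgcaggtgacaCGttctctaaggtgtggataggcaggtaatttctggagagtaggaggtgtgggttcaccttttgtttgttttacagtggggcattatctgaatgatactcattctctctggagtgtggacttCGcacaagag

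The second pair belongs to genes of broad expression, Abcf1 with 0.0581 bits and Abcf3 with 0.0661 bits. They come from chr17:35969701-35970000 on the minus strand and chr16:20548353-20548652 on the plus strand.

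Abcf1: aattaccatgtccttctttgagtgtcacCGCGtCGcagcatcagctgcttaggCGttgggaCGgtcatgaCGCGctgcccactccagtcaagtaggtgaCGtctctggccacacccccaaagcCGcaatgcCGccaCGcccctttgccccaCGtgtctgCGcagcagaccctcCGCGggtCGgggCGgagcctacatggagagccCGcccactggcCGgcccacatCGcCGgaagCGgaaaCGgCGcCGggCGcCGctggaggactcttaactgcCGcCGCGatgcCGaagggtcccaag
Abcf3: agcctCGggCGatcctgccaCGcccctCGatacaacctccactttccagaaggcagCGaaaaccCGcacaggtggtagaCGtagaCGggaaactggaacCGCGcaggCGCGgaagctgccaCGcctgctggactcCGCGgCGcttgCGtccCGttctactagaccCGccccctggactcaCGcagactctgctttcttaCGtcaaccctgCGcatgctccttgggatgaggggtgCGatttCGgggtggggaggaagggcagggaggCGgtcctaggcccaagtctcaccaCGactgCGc

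The window of Slc26a9 held 5 CpG and that of Abca12 held 6, whereas Abcf1 had 31 and Abcf3 had 27. The median over the 32851 windows of all genes was 7. The letters TATAAA, searched on the gene's strand with the first base 40 to 20 bases before the start, were found 28 bases before the start of Slc26a9 and in 1.99% of all windows. A window was found for 51 of the 66 genes. Among the 37 genes tested that had a single window, the median was 22 CpG, and 22 windows held 20 or more CpG, as did 26.5% of all windows. The 10 of these genes with the highest information had a median of 17 CpG (range 2 to 28), and the 10 with the lowest had a median of 22.5 (range 7 to 31). The ranges overlapped widely, and the contrast between the printed pairs was not shared by every gene, since Slc19a2, at 0.733 bits, also had 28 CpG. TATAAA was present in 2 windows of the first 10 (Slc26a9 and Abca1) and in 0 windows of the last 10. These are descriptions of sequence and were not tested.

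**Figure D1:**
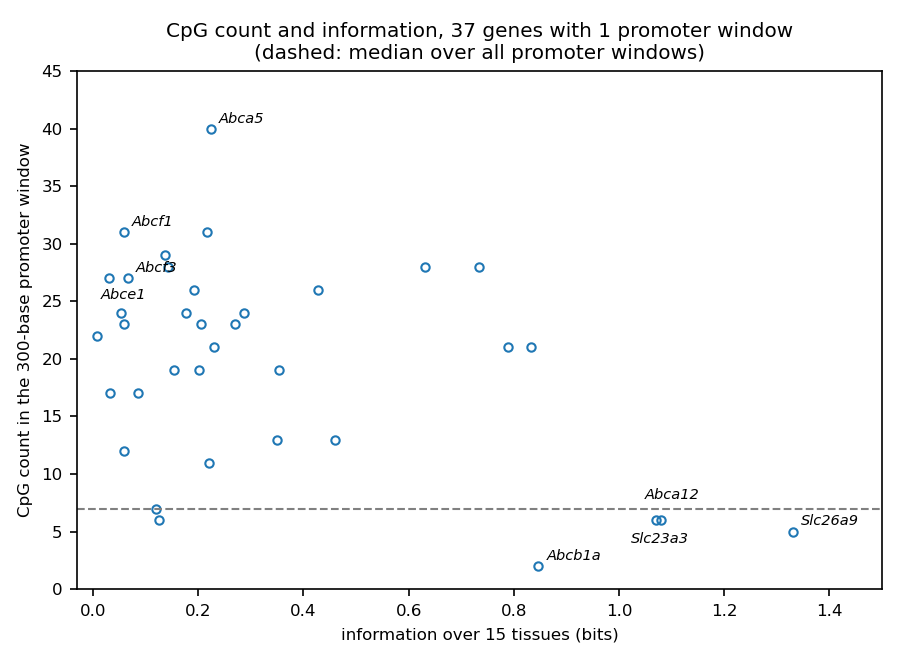
CpG count in the 300-base promoter window (vertical axis, number of CG dinucleotides) against information over 15 tissues (horizontal axis, bits) for the 37 genes with 1 window; each circle is a gene and the dashed line is the median of 7 over all windows. Slc26a9, Abca12, Slc23a3 and Abcb1a lie below the line at over 0.8 bits, whereas Abcb4 (0.833 bits, 21 CpG) lies above it. Genes with many CpG occur at low, middle and higher information.

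Before the results, the arrays were compared with their labels. Marker genes of liver (7 genes), eyes (9 genes), brain (7 genes) and kidney (2 genes) had their highest summed ratios in the tissues of those names. The summed skeletal muscle markers (6 genes) were 216 and 324 in muscle, and also 118 and 90.8 in bone and 44.2 and 176 in skin. The 3 lung markers were summed highest on a liver array (88.6, against 49.7 and 80.0 in lung). Of these, Cbr2 and Fmo2 were highest in lung and the macrophage gene Marco in liver (mean log2 ratio 5.36 ± 1.43, SD, n = 2). Of the 2 heart markers, Tnnt2 was highest in heart and Adrb1 in lung. The osteoclast gene Acp5 was highest in liver and next in large intestine, though enriched in bone too, and the cerebellum marker En1 was highest on a muscle array (linear ratio 1.97, against 1.47 and 1.74 in cerebellum). No marker list was available for fat, bladder or large intestine. Over the transporter genes, 27 of 30 arrays had their own replicate as nearest array. The exceptions were large intestine replicate 1, nearest to small intestine replicate 1, and both arrays of fat. The correlation with the own replicate over these genes was 0.468 for fat and 0.713 for large intestine. Fat replicate 1 had a summed eye marker ratio of 98.6, against 9.18 for fat replicate 2 and 464 and 437 for eyes. The lens genes Crygc (82.3) and Cryga (7.91) made up most of it, and none of the other 7 eye markers exceeded 2.12 there. For the main results that rest on fat replicate 1 or large intestine replicate 1, values with and without them are therefore given. The share of probes well above background in Cy3 lay between 53.9% and 76.8% of an array.

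Nearly all of the transporter genes were measured and all that were measured varied among tissues. Of the 66, 63 were well above background in Cy3 on each of the arrays of some tissue and were tested together with all 21019 probes that met this condition. The exceptions were Slco6b1 (above background on 1 of 30 arrays), Slco6c1 (3 arrays) and Slco6d1 (0 arrays), organic anion carriers known from testis, which was not among the tissues. All 63 differed among the 15 tissues (limma F-test, adjusted p under 0.05), against a background of 90.7% of all probes tested. The 46 genes above background on all 30 arrays made up 73%, against 55.9% of all probes.

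A gene was called enriched in a tissue when its mean exceeded the mean of the other 14 tissues by at least 2 on the log2 scale with an adjusted p under 0.05. By this rule 28 of the 63 (44.4%) were enriched in at least 1 tissue, against 34.1% of all probes, 18 of them in 1 tissue, 4 in 2 and 6 in 3 or more. Both arrays of some tissue lay above every array of all other tissues for 38 genes (60.3%), against 51% of all probes. Slc9a4, among the 28 and the 38, met the condition for testing only through stomach, where it was highest. Abca14, among the 38, did so only through small intestine, its highest tissue. Nothing is read from their place in these counts or among the 63 that differed. A fall of 2 or more below the other tissues was called in 11 genes (17.5%), against 13.1%. The median information was 0.23 bits (quartiles 0.14 and 0.492), against 0.159 bits (0.056 and 0.463) over all probes. Only 3 genes (4.76%) reached 1 bit, against 10.3% of all probes, and 12 (19%) were under 0.1 bit, against 38.5%. The genes were thus found mostly between the extremes, with a median range of tissue means of 3.0 on the log2 scale against 2.33 over all probes.

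**Figure D2:**
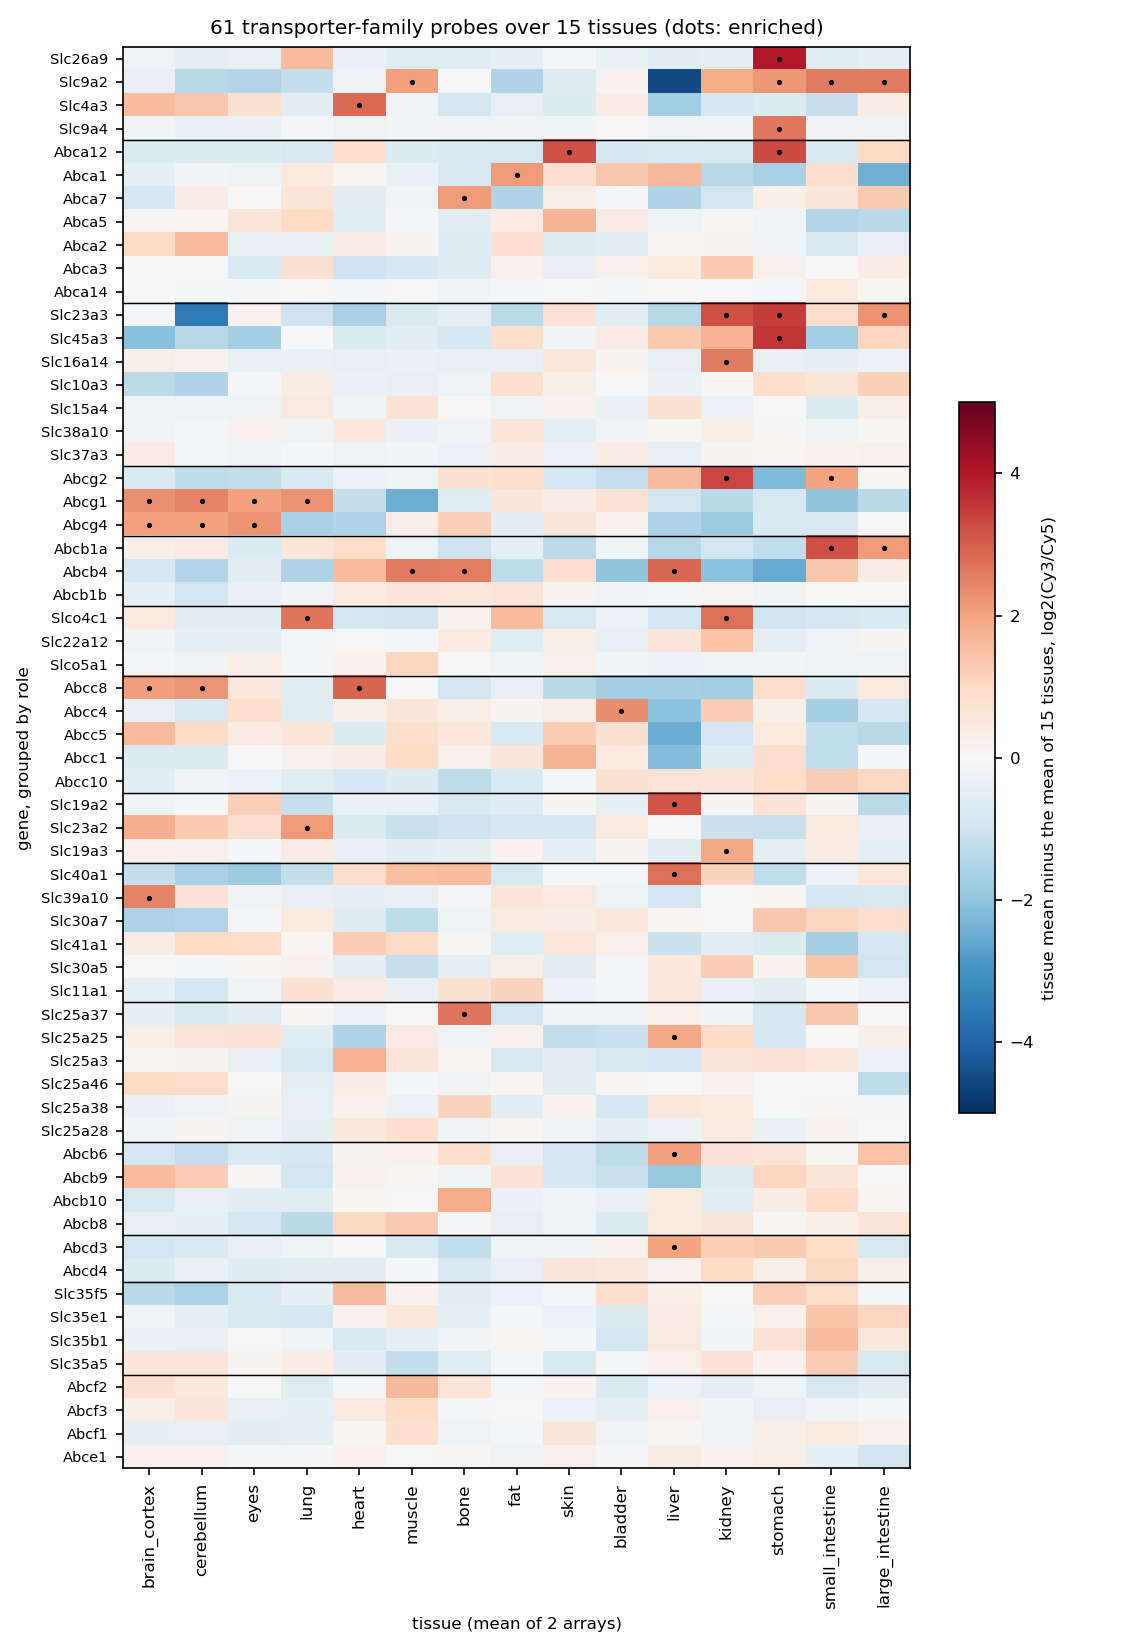
Mean log2 ratio of tissue over reference, minus the gene's mean over the tissues (colour; red high, blue low), for 61 of the 63 transporter genes (rows, grouped by role) in 15 tissues (columns); each cell is the mean of 2 arrays and a dot marks a tissue called enriched. Ion exchangers stand out in stomach, heart and gut, the conjugate exporters Abcc1, Abcc4 and Abcc5 are low in liver, and the rows of Abce1, Abcf1 and Abcf3 are pale throughout.

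The 4 carriers of ions were each called enriched somewhere, against 34.1% of all probes, but 1 of them, Slc9a4, met the condition for testing through stomach alone. Slc26a9, a chloride and bicarbonate transporter of gastric and airway epithelium, gave log2 ratios of 4.47 and 4.39 in stomach and 2.46 and 1.56 in lung. Both stomach arrays stood above every other array, both lung arrays came next, and the remaining tissue means were at or below that of skin (0.39 and 0.32). The difference of stomach from the other 14 tissues was 4.30 ± 0.14 (SE; adjusted p = 3e-14, limma), and lung differed by 1.70 ± 0.14 (adjusted p = 2.7e-08). The signal was not well above background in small intestine, and stomach was at least 24.8-fold higher than it.

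Slc9a4, a sodium/proton exchanger known from the acid-secreting cells of the stomach, was above background on both arrays in stomach and in no other tissue. Its ratios were 2.84 and 2.71 there, and between -0.25 and 0.15 on all other arrays. Stomach was at least 6.4-fold higher than bladder, the tissue with the next mean. The gene met the condition for testing through stomach alone, so its call is given as a description, and under a stricter condition (above background in at least 5 tissues) it was not tested. A fold given as at least some value is the lower of 2 quantities. One is the fold of the mean ratios, and the other compares the bright tissue's normalised Cy3 level with the higher of the dim probe's own level and the lowest signal well above background.

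Slc9a2, an exchanger of sodium for protons at the apical side of gut epithelium, was high nearly everywhere and low in liver. It gave 6.56 and 7.11 in small intestine, 6.98 and 6.69 in large intestine, 6.51 and 6.27 in stomach, 6.19 and 6.35 in muscle and 6.18 and 5.98 in kidney. Liver gave -0.38 and -0.21 and was not well above background, so small intestine was at least 140-fold higher. Fat replicates gave 5.20 and 0.24, the widest split of any gene in fat. Enrichment was called in small intestine (2.79 ± 0.67, adjusted p = 0.0021), large intestine (also 2.79, or 2.82 without large intestine and fat replicate 1), stomach (2.31) and muscle (2.19), and liver was lower by the same rule (adjusted p = 6.4e-06). Without fat replicate 1 and large intestine replicate 1 the fat difference moved from -1.62 to -4.09 and kidney passed the rule too (2.17, adjusted p = 4.64e-06). The calls in muscle and stomach were lost when either array of that tissue was left out, and that in small intestine without its replicate 2. Against the tissues linked to each by scan day, that is, arrays scanned on days that connect them, none of the 4 enriched calls remained, and those in muscle and stomach were also lost under median centring of the arrays in place of loess. The stomach call was lost too when the scanner software's processed signals or the authors' value table were used. The 5 small intestine markers were summed at 110 and 172 in small intestine, 144 and 137 in stomach, 71.0 and 70.1 in muscle and 67.3 and 48.5 in large intestine. Of these sums the receptor gene Sctr alone made up 68.2 and 67.4 in muscle and 99.8 and 99.9 in stomach, and in muscle Alpi, Lct and Vil1 were not well above background on either array. Their part in the Slc9a2 values was not tested.

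Slc4a3, the chloride/bicarbonate exchanger of heart and brain, was highest in heart at 3.34 and 3.48, followed by brain cortex at 2.14 and 2.11 and cerebellum at 1.86 and 1.95. The heart arrays lay above all others, and the difference from the other tissues was 3.04 ± 0.24 (adjusted p = 1.2e-08). Liver was lowest at -1.38 and -0.91. Of 16 genes for ion pumps, channels and subunits of the proton ATPase used as partners, 15 were tested and all 15 differed among tissues. Of the 15, 3 were enriched somewhere and 2 lower. The shares of all probes that differed, were enriched or were lower were 90.7%, 34.1% and 13.1%. Atp1b1, a subunit of the sodium pump, reached its highest mean of 6.14 ± 0.42 (SD, n = 2) in kidney. Atp6v0a2 was enriched in small intestine, and Atp6v1a in brain cortex, cerebellum and kidney.

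**Figure D3:**
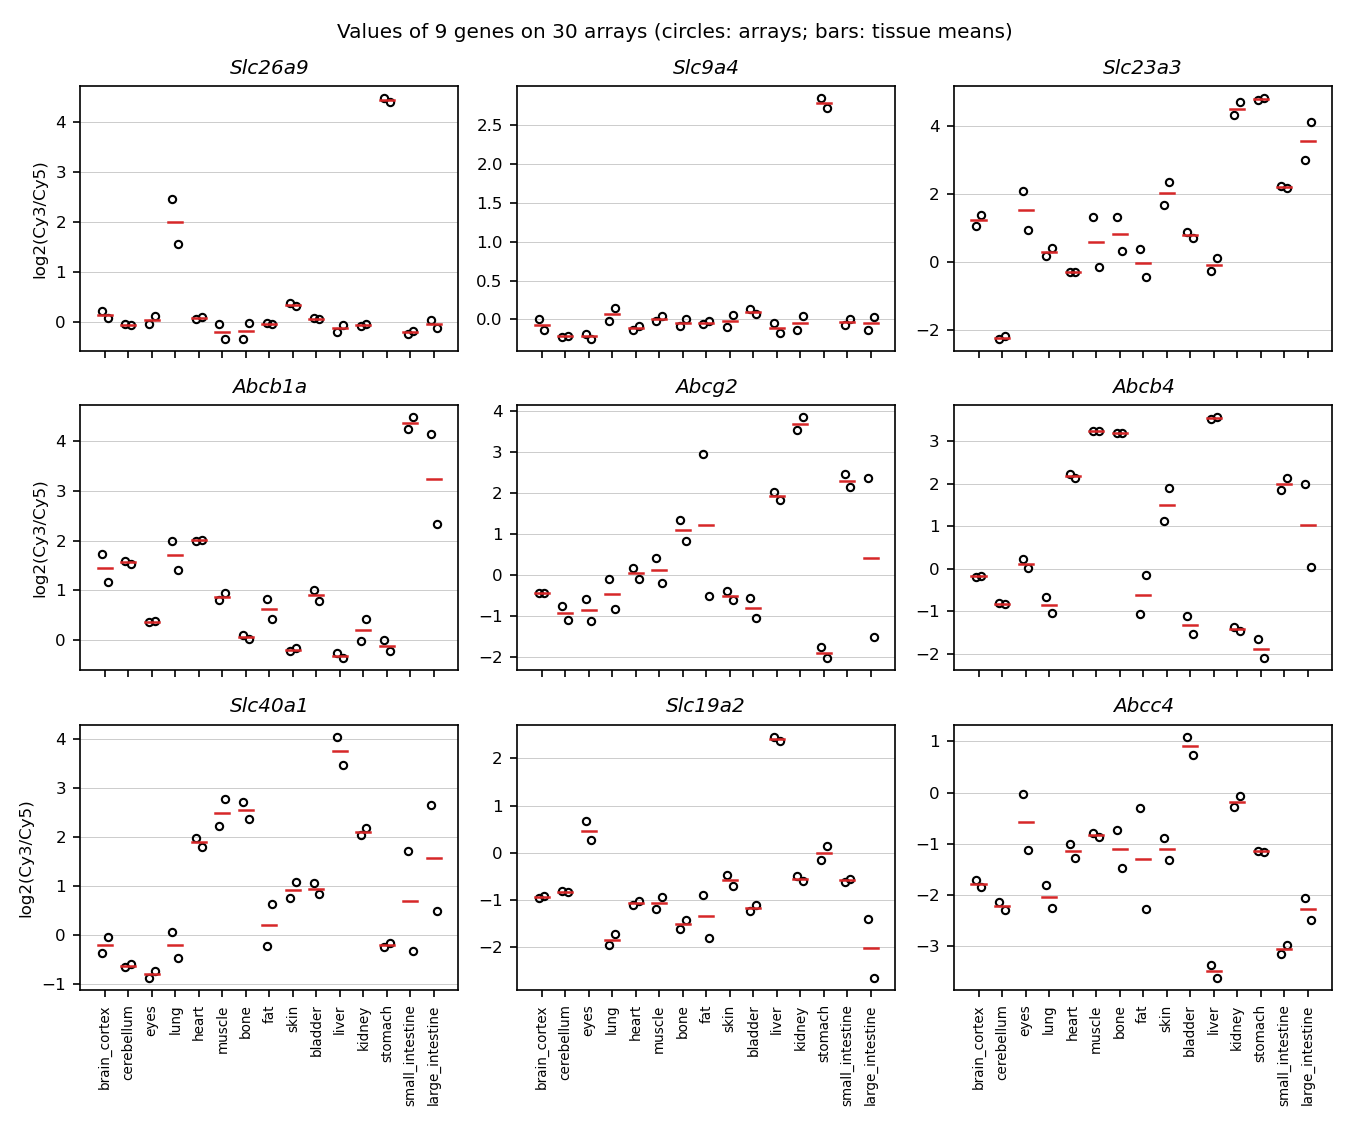
Log2 ratio of tissue over reference on every array, by tissue (circles, 2 per tissue; red bars are tissue means; vertical axes differ between panels) for 9 transporter genes. Replicates mostly coincide. The wider splits include Abcg2 in fat (2.95 and -0.50) and large intestine (2.36 and -1.51) and Abcc4 in fat (-0.31 and -2.27). Slc40a1 splits in small (1.72 and -0.32) and large intestine (2.65 and 0.49). Abcb1a (4.14 and 2.33) and Abcb4 (1.99 and 0.05) split in large intestine. Abcc4 has its lowest values, -3.36 and -3.61, in liver.

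Slc45a3, a sugar/proton carrier best known as a marker of prostate epithelium, gave 4.10 and 4.34 in stomach and 2.41 on both arrays of kidney, and it was lowest in brain cortex at -1.65 and -1.22. The stomach arrays were above all others (3.81 ± 0.41, adjusted p = 8.7e-07), and brain cortex was called lower (-2.25, adjusted p = 0.00014), though not under median centring. Slc23a3, an orphan relative of the vitamin C carriers, gave 4.75 and 4.81 in stomach, 4.31 and 4.69 in kidney and 3.0 and 4.11 in large intestine. It was not well above background in cerebellum (-2.25 and -2.17), and stomach was at least 110-fold higher. Its differences were 3.71 ± 0.34 in stomach, 3.41 in kidney, and 2.40 in large intestine (2.99 without large intestine replicate 1), and cerebellum was called lower (adjusted p = 2.2e-08). The call in large intestine was lost without large intestine replicate 2, under median centring and against the tissues linked by scan day.

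The 6 genes (9.52%) called enriched in stomach were Slc26a9, Slc9a4, Slc9a2, Slc45a3, Slc23a3 and Abca12, where the share of all probes was 3.85%. Since Slc9a4 was tested through stomach alone and the call of Slc9a2 was easily lost, nothing is read from this count.

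The carriers of vitamins divided by tissue. Slc19a2, a thiamine (vitamin B1) carrier, gave 2.46 and 2.37 in liver, against 0.67 and 0.27 in eyes, the next tissue. The liver arrays stood above all others, at 3.35 ± 0.21 over the other 14 (adjusted p = 2.5e-10). Slc19a3, the other thiamine carrier, gave 2.28 and 2.42 in kidney, above all other arrays (2.05 ± 0.19, adjusted p = 5.4e-08). This difference was close to the threshold and the call was lost without kidney replicate 2, under median centring and against the tissues linked by scan day. In liver Slc19a3 was not well above background, and kidney was at least 5.56-fold higher. Slc23a2, a carrier of vitamin C (ascorbate), gave 2.59 and 3.27 in lung and 2.63 and 2.62 in brain cortex. The arrays of these 2 tissues overlapped. Lung was called enriched (2.29 ± 0.18, adjusted p = 1.2e-08), which was lost without lung replicate 2 and against the tissues linked by scan day, and brain cortex fell just short (1.96).

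Among metal carriers, Slc40a1 (ferroportin), the exporter of iron, gave 4.05 and 3.47 in liver and next 2.72 and 2.38 in bone and 2.22 and 2.78 in muscle. The liver arrays were above every other array, with a difference of 2.94 ± 0.41 (adjusted p = 7.2e-06). Its replicates disagreed in small intestine (1.72 and -0.32) and large intestine (2.65 and 0.49). Slc39a10, a zinc importer, gave 1.17 and 1.39 in brain cortex, against -0.33 and -0.66 in cerebellum. Brain cortex stood above all other arrays (2.68 ± 0.21, adjusted p = 4.5e-09) and at least 10.6-fold above liver, where the signal was not well above background. The zinc carriers Slc30a5 and Slc30a7, the magnesium carrier Slc41a1 and Slc11a1, a metal carrier of phagocytes, were enriched nowhere. Their highest tissue means were in small intestine, stomach, heart and fat, in that order.

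Slc25a37 (mitoferrin), which imports iron for haem synthesis in erythroid cells, gave 3.22 and 2.08 in bone and 1.06 and 1.56 in small intestine. Both bone arrays exceeded all others (2.87 ± 0.23, adjusted p = 2.6e-08). Slc25a38, a glycine carrier of haem synthesis, was also highest in bone, at 2.32 and 1.08, with a difference of 1.18 ± 0.20 (adjusted p = 0.00016) that did not reach the size required for enrichment. Abcb10, a mitochondrial exporter induced in erythroid cells, gave 3.69 and 1.99 in bone, a difference of 1.99 ± 0.27, and passed the rule without fat replicate 1 and large intestine replicate 1 (2.03, adjusted p = 4.37e-06). For these 3 genes the value of bone replicate 1 was the higher by over 1, and for Slc25a38 and Abcb10 bone replicate 2 lay within the range of other tissues. The erythroid marker Bpgm was also highest in bone, at linear ratios of 7.29 and 6.38. Its part in these values was not tested.

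The related mitoferrin Slc25a28 was nearly even, at 0.0535 bits, with 0.93 and 1.21 in muscle as its highest values. Of 13 genes of haem and iron-sulphur synthesis used as partners, 13 differed among tissues, 2 were enriched and 0 lower. The shares of all probes were 90.7%, 34.1% and 13.1%, in that order. Aco1, an iron-sensing aconitase, was enriched in liver and kidney. Of the other mitochondrial carriers, Slc25a3, the phosphate carrier, gave 2.24 and 2.18 in heart, above all other arrays (1.85 ± 0.16, adjusted p = 3.1e-08). Slc25a25, an ATP-magnesium/phosphate carrier, was called enriched in liver (2.08 ± 0.40, adjusted p = 0.00025), but its liver arrays were 3.95 and 2.37, its muscle arrays 0.59 and 2.65, and without liver replicate 1 the adjusted p was 0.0531. The call was also lost under median centring. Slc25a46, a protein of the outer membrane, had its highest values in brain cortex, 2.02 and 1.80.

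**Figure D4:**
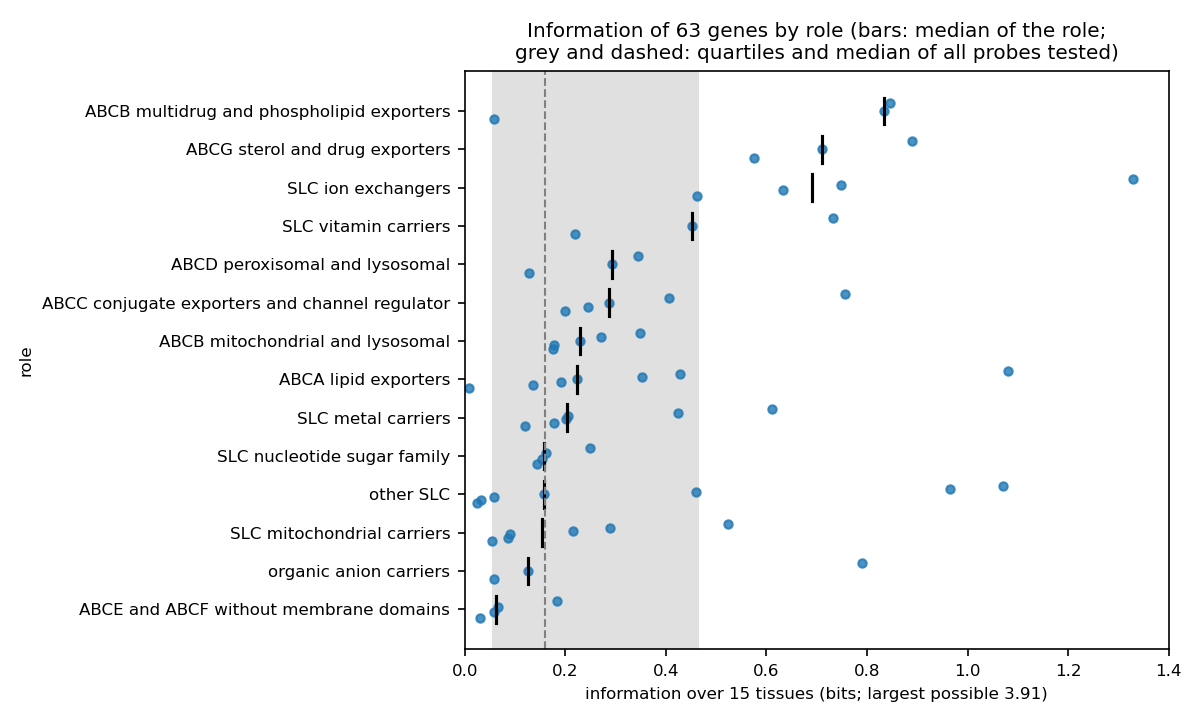
Information over the 15 tissues (horizontal axis, bits) of 63 transporter genes, by role (rows); each point is a gene, black bars are the medians of the roles, and the grey band and dashed line are the quartiles and the median of all 21019 probes tested. Exporters of the ABCB and ABCG groups and ion exchangers have the highest medians, and the ABCE and ABCF genes the lowest.

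Among sterol and lipid exporters, the enriched tissues of Abcg1 and Abcg4 overlapped, and those of Abcg2, Abca1, Abca12 and Abca7 lay elsewhere. Abcg1, which exports cholesterol to high-density lipoprotein, gave 2.56 and 2.46 in cerebellum, 2.28 and 2.36 in brain cortex, 2.51 and 2.07 in lung and 1.90 and 2.17 in eyes. All 4 tissues were called enriched, with differences from 2.14 to 2.64 (SE 0.13). Muscle (-2.32 and -2.50) and small intestine (-2.0 and -1.88) were called lower, and cerebellum was 30.3-fold above muscle by the ratio of means. Abcg4, a related exporter of brain and eye, gave 3.24 and 3.42 in eyes, 3.14 and 3.13 in brain cortex and 3.09 and 3.07 in cerebellum, and was enriched in all of them (2.14 to 2.41). In bone its replicates were 3.24 and 1.35. The calls of Abcg1 rest on the comparison with all tissues: against the tissues linked by scan day, none of its enriched or lower calls remained.

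Abcg2, the breast cancer resistance protein that exports drugs and urate, gave 3.53 and 3.84 in kidney and 2.45 and 2.14 in small intestine. Kidney lay above all other arrays (3.60 ± 0.66, adjusted p = 0.00023) and 47.7-fold above stomach, which was called lower (-1.75 and -2.03). Its replicates disagreed widely in fat (2.95 and -0.50) and large intestine (2.36 and -1.51). The call in small intestine (2.10, adjusted p = 0.015) was lost when either of its arrays, fat replicate 2 or large intestine replicate 2 was left out, under median centring and with slide or scan day as a block, and that of lower values in stomach was lost without either stomach array.

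Abca1, which loads cholesterol onto apolipoprotein A-I, gave 3.09 and 3.56 in fat, 3.06 and 2.56 in liver and 2.48 and 2.57 in bladder. Fat stood just above all other arrays (2.30 ± 0.30, adjusted p = 1.4e-05, and 2.61 without the 2 arrays that stand apart), and large intestine was lower (-2.56, or -3.60 without them). The large intestine replicates were -0.17 and -2.24, and the lower call was lost without replicate 2. Abca12, the lipid carrier of the skin barrier, gave 3.81 and 4.37 in stomach and 3.85 and 4.11 in skin. These arrays overlapped each other and stood above the rest, with differences of 3.52 ± 0.28 in stomach and 3.39 ± 0.28 in skin (adjusted p = 1.5e-08 and 2.8e-08). Bladder was not well above background, and stomach was at least 12.7-fold higher. The 4 skin markers were summed at 88.2 and 81.9 in skin and 60.8 and 62.0 in stomach, with the next array at 13.7 in bladder. Their part in the stomach value was not tested.

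Abca7, a phospholipid exporter of phagocytes and brain, gave 3.46 and 2.40 in bone (2.28 ± 0.18, adjusted p = 2.5e-08), a call lost without bone replicate 1, under median centring and against the tissues linked by scan day. The 6 leukocyte markers were summed at 19.5 and 14.7 in bone and 20.4 and 12.1 in lung, and their part was not tested. Abca2, a lipid transporter of myelin-forming cells, was highest in cerebellum (1.90 and 2.12), and Abca3, the surfactant lipid transporter of the lung, gave 2.08 and 2.20 in kidney, its highest tissue, and 1.64 and 1.51 in lung, a difference that was not tested. Abca5 was highest in skin (2.28 and 1.90), whereas 2 further probes of the gene were highest in cerebellum and brain cortex. Abca14 had the lowest information, 0.00821 bits, but it was well above background on 4 of the 30 arrays, including both of small intestine (0.78 and 0.38, its highest values) and both of no other tissue. Its low information therefore does not show even expression, and Abca14 met the condition for testing through small intestine alone. Of 10 sterol genes used as partners, 9 differed among tissues, 4 were enriched and 1 lower, against 90.7%, 34.1% and 13.1% of all probes. Nr1i3, a nuclear receptor of bile acid and drug metabolism, was enriched in liver and small intestine, Hsd17b7, an enzyme of cholesterol synthesis, in liver, Soat1, which esterifies cholesterol, in lung, and Apoa2 in liver and both brain regions.

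The exporters of drugs and phospholipids of the ABCB group had the highest median information of any role, 0.833 bits over 3 genes. Abcb1a, the P-glycoprotein of gut and brain vessels, gave 4.24 and 4.47 in small intestine, above all other arrays (3.47 ± 0.27, adjusted p = 6e-09). Large intestine gave 4.14 and 2.33 and was called enriched with both arrays (2.27) and not without replicate 1 (1.38 ± 0.20, adjusted p = 1.19e-05), nor under median centring. Heart followed at 2.00 and 2.01. Its close paralogue Abcb1b lay between -2.09 in cerebellum and 0.07 on an array of fat, and was well above background on 19 of the 30 arrays and on none of small or large intestine. How far the probes tell the paralogues apart was not tested, so the level of each is uncertain.

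Abcb4, the phosphatidylcholine exporter of bile, gave 3.51 and 3.56 in liver, 3.24 on both muscle arrays and 3.20 and 3.19 in bone. Heart came next at 2.23 and 2.13. The 3 leading tissues lay above all others, and all were called enriched (3.09, 2.77 and 2.73, SE 0.30). Stomach (-1.65 and -2.10), kidney (-1.36 and -1.46) and bladder (-1.10 and -1.52) were called lower, and liver was 42.5-fold above stomach. The lower calls of kidney and bladder were lost under median centring and against the tissues linked by scan day, and that of bladder also without bladder replicate 2. The skeletal muscle markers given above were high in both muscle and bone, and their part in the bone value was not tested. A second Abcb4 probe was also highest in liver (mean 4.81), but it was lowest in small intestine (mean -0.95), where the probe in the table gave 1.86 and 2.13.

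Of the ABCB genes of mitochondria and lysosomes, Abcb6, a porphyrin transporter, was enriched in liver (2.94 and 3.03, above all other arrays, 2.15 ± 0.17, adjusted p = 4.9e-09), with large intestine next at 2.21 and 2.61. This call was lost under median centring. Abcb8, a mitochondrial transporter, was highest in muscle (1.72 and 2.17) and heart (1.44 and 1.94). Abcb9, a lysosomal peptide transporter, was highest in brain cortex (2.47 and 2.75) and was called lower in liver (-1.17 and -0.59, difference -2.03). That call was close to the threshold and was lost in 4 of the settings that left out 1 array and against the tissues linked by scan day.

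Of the conjugate exporters of the ABCC group, Abcc1, Abcc4 and Abcc5 were low in liver and Abcc10 was not. Abcc1, a glutathione conjugate exporter, gave -3.03 and -3.0 in liver and was highest in skin at 0.89 and 0.82. Abcc4, an exporter of cyclic nucleotides and bile acids, gave -3.36 and -3.61 in liver and was highest in bladder at 1.09 and 0.74. Abcc5, an exporter of cyclic nucleotides, gave -2.42 and -2.27 in liver and was highest in brain cortex at 1.82 and 1.61. For each of the 3 genes both liver arrays were the lowest of the 30. The differences from the other tissues were -2.32 ± 0.11 for Abcc1, -2.22 ± 0.32 for Abcc4 and -2.65 ± 0.22 for Abcc5 (adjusted p = 5.4e-12, 1.1e-05 and 7.7e-09). With Abcb9 and Slc9a2, 5 of the 63 (7.94%) were lower in liver, against 4.44% of all probes. Abcc4 was enriched in bladder (2.50 ± 0.32, adjusted p = 8.1e-06), and Abcc10 was enriched nowhere, with 1.81 and 2.02 in small intestine as its highest values and 1.08 and 1.55 in liver.

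Abcc8, the sulphonylurea receptor that regulates potassium channels, gave 4.22 and 4.20 in heart, 3.54 and 3.49 in cerebellum and 3.53 and 3.28 in brain cortex, and was enriched in all of them (3.10, 2.36 and 2.24). Heart stood above all other arrays and at least 24.9-fold above kidney, where the signal was not well above background. The other 2 probes of Abcc8 did not follow this pattern. Their tissue means ranged over 0.97 and 0.48 on the log2 scale, against 4.64 for the probe in the table, and their correlations with it over 30 arrays were 0.54 and 0.298. They were above background on 21 and 6 arrays.

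Among the transporters of peroxisomes and lysosomes, Abcd3, a peroxisomal importer of branched-chain acyl-CoA, gave 3.78 and 3.66 in liver, above all other arrays (2.13 ± 0.34, adjusted p = 3.2e-05), with stomach (2.99 and 3.10) and kidney (2.89 and 2.96) next. Abcd4, a lysosomal cobalamin transporter, was enriched nowhere. Of 10 peroxisomal genes used as partners, 10 differed among tissues, 5 were enriched and 1 lower, against 90.7%, 34.1% and 13.1% of all probes. Pecr was enriched in liver and kidney, Acaa1b in these and in bladder and small intestine, and Acot4 and Agps in kidney.

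The ABCE and ABCF genes, which act in translation, were the most even group. Their median information was 0.0621 bits and 0 of 4 were enriched or lower anywhere in the main fit, against 34.1% and 13.1% of all probes. Abce1, a ribosome recycling factor, ranged from -2.85 to -0.64 over the 30 arrays, the lowest value being that of large intestine replicate 2. Abcf1 lay between -0.86 and 0.58 and Abcf3 between -0.08 and 1.48. All 3 ABCF genes were highest in muscle, and for each both muscle arrays exceeded every other array. The difference reached 1.75 ± 0.12 for Abcf2 (0.55 and 0.53 in muscle, adjusted p = 2.1e-09). Of 11 translation factors used as partners, 10 differed among tissues, against 90.7% of all probes, and 0 were enriched or lower. Their median information was 0.0506 bits.

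The remaining carriers had tissue patterns of several kinds. Slco4c1, an organic anion carrier of the kidney, gave 2.72 and 2.82 in kidney and 2.93 and 2.43 in lung, which overlapped. Both were enriched (2.96 and 2.87, SE 0.47), and kidney was at least 12.3-fold above muscle. Fat gave 3.27 and -0.17. Slc16a14, a member of the monocarboxylate carrier family, gave 3.45 and 2.61 in kidney, above all other arrays (2.80 ± 0.15, adjusted p = 4.7e-11), with skin next at 0.94 and 1.04, and kidney was at least 5.87-fold above small intestine. Slc22a12, the urate carrier of the renal tubule, was highest in kidney (1.64 and 2.26), with a difference of 1.53 ± 0.31 that was under the size for enrichment. Slco5a1, of unsettled role, was highest in muscle at 1.22 on both arrays (1.17 ± 0.09, adjusted p = 1.93e-08), and had no value on fat replicate 1, which the fit left out.

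The nucleotide sugar family (Slc35a5, Slc35b1, Slc35e1 and Slc35f5) was enriched nowhere in the main fit, with 0 of 4 called, against 34.1% of all probes. The first 3 were highest in small intestine, with means from 1.33 to 2.46, and Slc35f5 in heart at 2.58 and 2.54. Slc10a3, a relative of the bile acid carriers, was highest in large intestine (1.08 and 1.88) and lowest in cerebellum (-1.19 and -1.26). Slc37a3, of the sugar phosphate carrier family, was among the most even genes (0.0237 bits), with a range of -0.95 on a bone array to 0.18, and its highest and lowest tissue means were 1.73-fold apart. Slc38a10, of an amino acid carrier family (0.0331 bits), had means within 2.14-fold, from 0.50 and 0.64 in fat to -0.52 and -0.54 in skin. Slc15a4, a lysosomal carrier of histidine and peptides, had means within 2.68-fold, with 0.54 and 0.78 in liver.

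Liver and kidney, both large exchangers of blood solutes, were set against each other, with a call at a difference of at least 1 either way and an adjusted p under 0.05. Of the 63 genes, 18 (28.6%) differed, against 18.8% of all probes. Higher in liver were 8 (12.7%, against 8.39% of all probes), namely Abcb4, Abca1, Slc19a2, Slc40a1, Abcb6, Slc23a2, Abcb10 and Slc15a4. Higher in kidney were 10 (15.9%, against 10.4%), namely Slc9a2, Slc23a3, Slco4c1, Abcc4, Slc16a14, Slc19a3, Abcc5, Slc25a3, Abcc1 and Abcb9. The largest difference towards liver was that of Abcb4 (4.94 ± 0.41, adjusted p = 1.86e-08), followed by Abca1 (3.0 ± 0.41) and Slc19a2 (2.97 ± 0.29). Towards kidney Slc9a2 was at least 82.8-fold higher, Slco4c1 at least 12.7-fold and Slc16a14 at least 6.74-fold, since liver was not well above background for them. For these genes and Slc19a3 the plot of liver against kidney shows the measured difference, whose size is limited by the background. The difference of liver from kidney was -4.57 ± 0.46 for Slc23a3 (adjusted p = 2.21e-07) and -3.31 ± 0.44 for Abcc4. The thiamine carriers Slc19a2 and Slc19a3 thus ran in opposite directions between the organs. Abcb10, Abcb9, Slc15a4, Slc23a2 and Slc40a1 each lost the call when 1 of the arrays of these organs was left out, and all of them with slide as a random block. Median centring removed the calls of Abcb10, Abcb6, Slc15a4, Slc23a2 and Slc40a1, and that of Slc40a1 was also lost with the processed signals and the authors' value table.

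**Figure D5:**
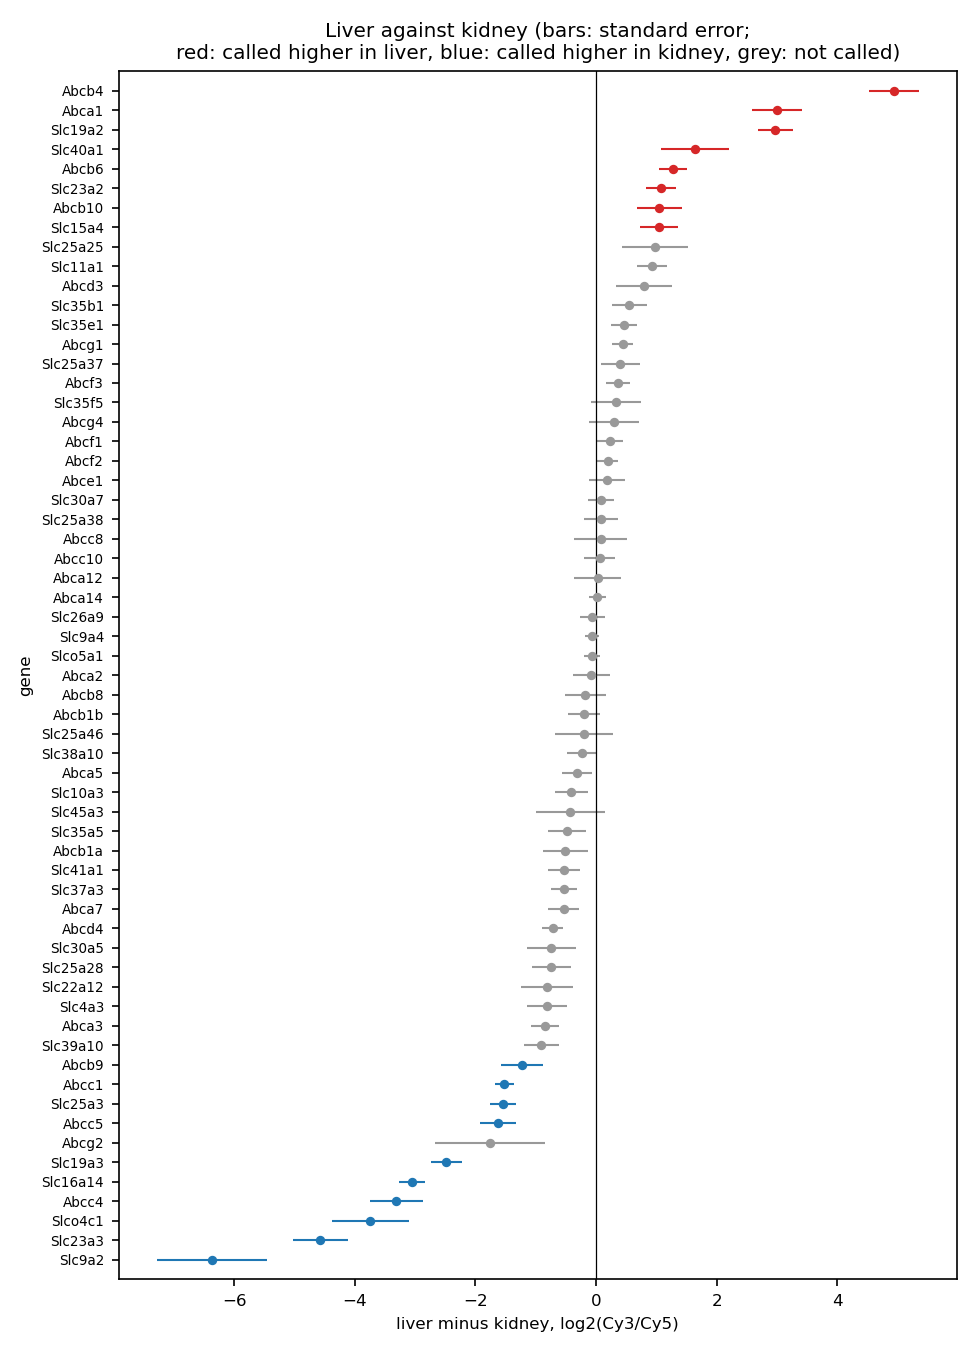
Difference between liver and kidney in log2 ratio (horizontal axis, liver minus kidney) for 61 of the 63 transporter genes (rows, ordered by the difference); points are differences of the means of 2 arrays and bars are 1 SE. Red points are the 8 genes called higher in liver, led by Abcb4 at 4.94, blue points the 10 called higher in kidney, and grey points were not called.

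Small and large intestine differed in 14 genes (22.2%), against 11.4% of all probes. Higher in small intestine were 8 (12.7% of the genes tested, background 6.32%) and higher in large intestine 6 (9.52%, background 5.05%). The largest towards small intestine was Abca1 (2.03 ± 0.14 against -1.21 ± 1.46, difference 3.23 ± 0.41, adjusted p = 2.11e-05), followed by Slc30a5 (2.34) and Slc35a5 (2.09). Abcd3, Slc19a2, Slc25a37 and Abcb1a were also among those higher in small intestine. Higher in large intestine were Slc45a3 (small minus large intestine -2.76), Abca12 (at least 3.13-fold), Slc4a3 (-1.56), Slc23a3, Abcb6 and Abcc1. The SD of large intestine was 0.68 or more for all of these genes except Abcb6 (0.28) and Abcc1 (0.17). Without fat replicate 1 and large intestine replicate 1, 25 genes differed, against 28.4% of all probes in that setting, and Abca12 was no longer called. The differences were then 4.26 for Abca1, 3.43 for Slc30a5, 2.95 for Slc35a5, -3.36 for Slc45a3 and -2.24 for Slc4a3. Without large intestine replicate 2 instead, 9 genes differed, against 5.38% of all probes, and the calls of Abcd3, Slc19a2, Slc25a37, Slc45a3 and Slc4a3 were among those lost. Those of Abcb1a and Slc23a3 were lost in 19 and 21 of the 30 settings that left out 1 array. With slide as a fixed block 10 genes differed, against 6.7% of all probes, and 7 of the 14 calls were lost.

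Heart and muscle differed in 11 genes (17.5%), against 15.2% of all probes. The background was 9.17% for higher in heart, which held for 7 genes (11.1%), and 6.02% for higher in muscle, which held for 4 (6.35%). Higher in heart were Slc4a3 (3.41 ± 0.10 against 0.35 ± 0.10, difference 3.06 ± 0.33, adjusted p = 1.19e-06), Abcc8 (2.90), Abca12 (at least 2.54-fold), Slc35f5 (1.39), Abcg1 (1.26), Abcb1a (1.12) and Slc25a3 (1.1). Higher in muscle were Slc25a25 (heart minus muscle -1.92), Abcg4 (-1.84), Abcf2 (-1.67) and Abcc5 (-1.55). The heart arrays agreed to within 0.31 SD for these genes, while muscle had SDs of 1.45 for Slc25a25, 0.66 for Abcg4 and 0.60 for Abcc8. Leaving out 1 array of either tissue removed the calls of Abcb1a and Slc35f5, and in some cases those of Abca12, Abcg4, Slc25a3 and Slc25a25. The calls of Abcc8 and Slc25a3 were lost when the scanner software's processed signals were used, and that of Slc25a3 also with the authors' value table. Median centring removed the calls of Abcb1a, Abcg1, Slc25a3 and Slc35f5. With slide as a random block 8 genes differed, against 10.6% of all probes, and the calls of Abcb1a, Slc25a25 and Slc35f5 were lost.

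Brain cortex and cerebellum differed in 3 genes (4.76%), against 5.47% of all probes. Slc23a3 was at least 8.58-fold higher in brain cortex, where its arrays gave 1.06 and 1.39 (adjusted p = 3.98e-05). Slc39a10 was higher in brain cortex by 1.78 ± 0.29 (adjusted p = 0.000386), a call that neither the processed signals of the scanner software nor the authors' value table gave. Abca7 was higher in cerebellum, at a mean of 1.16 against -0.08 (adjusted p = 0.00264), though not under median centring.

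By tissue, liver had 6 enriched transporter genes (9.52%, against 5.4% of all probes), namely Abcb4, Abcb6, Abcd3, Slc19a2, Slc25a25 and Slc40a1. Kidney had 5 (7.94%, against 4.21%), namely Abcg2, Slc16a14, Slc19a3, Slc23a3 and Slco4c1. Brain cortex had 4 (6.35%, against 7.17%) and small intestine 4 (6.35%, against 5.06%). Cerebellum (5.99%), lung (4.32%), large intestine (3.99%) and bone (3.16%) had 3 each, or 4.76% of the genes, the values in parentheses being the share of all probes. Eyes (5.49%), heart (3.01%) and muscle (3.53%) had 2 each, or 3.17%. Bladder (2.34%), skin (3.62%) and fat (1.59%) had 1 each, or 1.59%. Of the lower calls outside liver, Abcb4 was called in kidney (2.09% of all probes), bladder (0.566%) and stomach (0.371%), Abcg2 in stomach too, Abcg1 in muscle (4.01%) and small intestine (1.35%), Slc45a3 in brain cortex (3.98%), Slc23a3 in cerebellum (4.31%) and Abca1 in large intestine (1.15%). With so few genes a tissue, these shares are described and not tested.

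Fat replicate 1 was far above fat replicate 2 for Slc9a2, Abcg2 and Slco4c1, as given above, and for Slc45a3 (2.95 and 0.11), genes that were highest in gut, kidney or stomach. It was also above it for genes highest elsewhere. These were Abcc8 (1.90 and -0.09, heart), Abcc4 (-0.31 and -2.27, bladder), Abcb9 (2.47 and 1.03, brain cortex) and Abca2 (1.88 and 0.53, cerebellum). Some genes went the other way, such as Slc25a25 (0.94 and 1.90) and Abcb1b (-0.89 and 0.07). The stomach marker Ctse was at a linear ratio of 12.9 on fat replicate 1 and 0.853 on fat replicate 2, against 9.87 and 9.90 in stomach. Large intestine replicate 1 was above replicate 2 for Abcg2, Abca1 and Abcd3 (2.16 and -0.32), and below it for Slc23a3. What part these markers have in the fat values was not tested.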

How the data were processed

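Total RNA of 15 tissues was labelled with Cy3 and hybridised with a Cy5-labelled common reference, without dye swap. The authors extracted spots with Agilent Feature Extraction 9.5.1.1, and the deposited spot files hold each channel's mean signal and local background as an intensity in scanner units, with flags for outliers and for signal well above background. The value table of the authors gives 25030 probes as a log10 level of Cy3 adjusted for the reference. It was used as an alternative: its column medians lay between 2.88 and 2.97, and after centring each probe it followed the ratios of the scanner software in the same direction (r 0.982 to 0.999), whereas the offset of each probe is unknown.

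Here the mean signals were corrected by normexp with an offset of 50, outlier spots (475) and control spots were dropped, and arrays were normalised by loess. Spots of a probe were averaged as log2(Cy3/Cy5). A probe was kept if some tissue had both its arrays well above background in Cy3. One coefficient per tissue was fitted over all 30 arrays with limma 3.58.1 in R 4.3.3 (15 residual degrees of freedom), and two-sided p-values of each comparison were adjusted over all 21019 probes by the method of Benjamini and Hochberg. A fold by the ratio of means is 2 to the power of the difference of mean log2 ratios. Where the dim tissue was not well above background on either array, a bound was computed from normalised Cy3 levels, which is open to dye bias, and the lower of it and the fold of the ratios is given. Depth has no meaning for arrays, where the number of arrays limits the precision. Replicate numbers did not pair the arrays (r over 0.1 for 33 of 105 pairs of tissues, median 0.0476), so no replicate block was used in the main fit. Slide was not a block there either, although both arrays of many tissues shared a slide. As a random block, slide had a consensus correlation of 0.693. The main fit leaves out spread between slides, so its errors and p-values may be too small for tissues on different slides.

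The genes, their roles and the partner and marker lists were chosen with earlier results of these data known. Arrays are shown for the 20 genes of highest and the 5 of lowest information and for genes called between 2 tissues, and further arrays were printed after their values were seen. The scripts were tested on simulated data. The results of 2 of the genes and of some partner genes are not reported here, although counts over the genes include them. Symbols came from the study's probe lists, and all 66 are current in a RefSeq gene table (GRCm38.p6).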

Additional observations from a re-analysis of the deposited data

Results flagged for a closer look

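Probes of the same genes outside the authors' table carried signal on more arrays than the negative controls, of which 1.2% of 153 spots were well above background. Of the 2 further Abca5 probes, that with 22 of 30 arrays above background was highest in cerebellum (r = 0.626 with the probe in the table over the arrays) and that with 30 arrays was highest in brain cortex (r = 0.769), while the probe in the table was highest in skin. The further probe of Abcb10 was above background on 30 arrays and highest in bone (r = 0.876), and that of Abcb4 on 28 arrays and highest in liver (r = 0.828), in each case the same tissue as the probe in the table. The further probes of Abcc8 were above background on 21 and 6 arrays and were highest in bladder and muscle, with means of 0.93 and 0.32, in place of heart. Arrays share their reference, so these correlations are descriptions.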

How the results depend on the processing

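No difference of a gene's highest tissue from the other 14 reversed under the settings that could give one, which exclude scan day and slide as fixed blocks and the comparison within scan-day sets. With 1 array left out at a time, 1876 of 1889 such differences kept direction and side of the threshold, 11 no longer passed and 2 newly passed. Leaving out single arrays gave 60 to 63 genes past the F-test, and the genes enriched ranged from 1 to 2 in muscle, 1 to 2 in skin, 2 to 4 in small intestine, 1 to 4 in fat (4 without fat replicate 2) and 2 to 5 in bone (2 without bone replicate 1, 5 without bone replicate 2). Between heart and muscle 6 to 12 genes differed (6 without muscle replicate 1), and between small and large intestine 9 to 25 (9 without large intestine replicate 2, 25 without replicate 1). The median information was 0.263 bits without replicate 1 of every tissue or 0.237 without replicate 2. Without both fat replicate 1 and large intestine replicate 1, a setting chosen after seeing the data, 13 genes differed between heart and muscle (16.5% of all probes) and 25 between small and large intestine (28.4%).

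The processed signals of the scanner software and the authors' value table each gave 4 genes enriched in muscle, 2 in skin and 6 in bone, 36 pairs of gene and tissue called lower in place of 14, and a median information of 0.291 bits, and each shared 45 of the 46 enriched calls. Both leave out the offset of 50. Centring on the median shared 36 of 46, with 2 genes enriched in small intestine and 1 in large intestine. The stricter filter, above background in at least 5 tissues, left 58 genes, with 0 enriched in skin. Slide as a random block gave 6 enriched in bone. Between liver and kidney it gave 13 genes in place of 18, against 12.3% of all probes.

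Scan day splits the tissues into 2 sets that share no day, so with scan day as a fixed block each tissue was compared with those linked to it by scan day. This gave 1 gene enriched in eyes, 1 in lung, 5 in heart, 1 in muscle, 2 in skin, 2 in small intestine, 1 in large intestine, 7 in bone and 2 in fat, 24 lower calls, and 33 of the 46 enriched calls. The same smaller comparison without the block, chosen after seeing the data, gave 1 in eyes, 1 in lung, 5 in heart, 1 in muscle, 2 in skin, 2 in small intestine, 1 in large intestine and 2 in fat, and also 33 of 46. Across the sets, tissue and scan day cannot be told apart. Heart and muscle could not be compared with scan day as a block. With slide as a fixed block, 63 genes passed the F-test, but neither the comparisons with the other 14 tissues nor heart with muscle and liver with kidney could be fitted. Small and large intestine differed in 10 genes with that block, and 7 of the 14 calls were lost. The replicate block gave 46 enriched and 14 lower calls and 62 genes past the F-test (Abca14 lost), and 45 in place of 46 pair calls.

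With 2 arrays per tissue the spread is pooled over tissues, so a difference in a tissue with discordant arrays has an error set mainly by the other tissues. Where signals are near the offset, ratios are drawn together, so falls and folds between tissues are understated.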
